A study of Mus musculus with 18 samples.

Results

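The mouse stefin A genes lie side by side on chromosome 16, and 7 of them are described here across wild-type (WT) and TRIM33-deficient (KO) bone marrow progenitors: *Stfa1*, *Stfa2*, *Stfa3*, *Stfa2l1*, *BC100530*, *Gm5483* and *2010005H15Rik*. They are 7 of 19919 genes listed in the expression tables of the study, were found by their symbols, and were chosen by their KO to WT difference in these same libraries. The size of that difference is therefore a description and is given with no test. RefSeq names *Gm5483* *Cstdc4*, *BC100530* *Cstdc5* and *2010005H15Rik* *Csta2*.

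Stefins are small inhibitors of the cystatin superfamily that stay mostly inside the cell. They bind the active site cleft of papain-like cysteine proteases, the lysosomal cathepsins among them, tightly but reversibly, and so hold in check protease that leaks from lysosomes. The mouse carries many tandem copies of the stefin A gene, and the copies are known for expression in the neutrophil lineage of bone marrow and in stratified epithelia.

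The libraries came from sorted bone marrow cells of C57BL/6 mice aged 6 to 8 weeks. Multipotent progenitors (MPPs), common dendritic cell progenitors without surface CD115 (CD115- CDPs) and common lymphoid progenitors (CLPs) were each sampled from both genotypes, with 3 libraries per group and 18 in all. WT mice were Trim33fl/fl, and KO mice were Trim33fl/fl Cre-ERT2, in which a tamoxifen-activated Cre removes exons 2 to 4 of *Trim33* throughout the animal, not only in the sorted cells. Mice of both genotypes received 2 mg of tamoxifen on 5 consecutive days and were kept for 7 more days. The methods of the study describe replicates outside its ChIP-qPCR as biological, but do not say whether a library came from 1 mouse or from several. Depth was read back from the steps between low values and came to between 19.42 and 21.46 M reads per library. All levels are FPKM, read numbers scaled to the length of the transcript and the depth of the library.

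The genes that the sorts used were checked first. *Flt3*, which the 3 populations share, was between 146.80 and 329.52 FPKM in all 18 libraries. *Il7r*, which marks CLPs, was between 32.56 and 63.03 FPKM in CLPs and between 1.89 and 20.60 FPKM elsewhere. *Csf1r* encodes CD115, which the sorted CDPs lacked on the surface, yet its transcript was at 57.03, 39.11 and 136.77 FPKM in the 3 WT CD115- CDP libraries and at 11.45, 9.24 and 37.18 FPKM in the KO ones. Markers also differed between genotypes within a gate. *Kit* was at 71.63, 74.80 and 71.65 FPKM in WT MPPs and 29.92, 34.73 and 49.88 FPKM in KO MPPs (log2 fold change −0.94, limma adjusted p = 0.0434, under the minimum of 1 for a call), and went the other way in CLPs, at 13.84, 13.26 and 11.49 FPKM in WT and 18.63, 18.90 and 22.44 FPKM in KO (log2 fold change 0.60, limma adjusted p = 0.0124). *Ly6a* was also below WT in every KO MPP library, whereas *Cd34* overlapped. *Itgax* encodes CD11c, for which CLPs and CD115- CDPs were sorted as negative. It was at 61.02, 69.66 and 54.80 FPKM in WT CLPs and 5.36, 5.92 and 7.47 FPKM in KO CLPs (log2 fold change −3.12, limma adjusted p = 5.12e-06), and at 23.29, 15.72 and 20.88 FPKM in WT and 4.67, 4.27 and 5.37 FPKM in KO CD115- CDPs (log2 fold change −1.85, limma adjusted p = 0.0499). The part of such shifts within the gates in the results below was not tested. The CD115- CDP libraries numbered 3 stood apart in myeloid genes: *Mpo*, myeloperoxidase, was at 1686.23 FPKM in the WT one and 2117.18 FPKM in the KO one, against 247.57 to 352.35 FPKM in the other 4.

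*Trim33* itself was at 10.42, 10.12 and 8.78 FPKM in WT MPPs and 9.71, 11.66 and 4.80 FPKM in the libraries labelled KO. In CD115- CDPs it was at 14.30, 15.23 and 8.27 FPKM in WT and 9.64, 8.28 and 4.03 FPKM in KO, and in CLPs at 12.36, 7.01 and 8.86 FPKM in WT and 7.52, 5.60 and 7.66 FPKM in KO. The genotypes overlapped in each population, and none of the 3 differences was called (limma, adjusted p = 0.63, 0.528 and 0.255). Number by number, each KO library was below its WT counterpart in CD115- CDPs and in CLPs. Fitted with the number as a block, CD115- CDPs gave a limma adjusted p of 0.0258, at a log2 fold change of −0.74 that is under the minimum of 1 for a call. A gene-level value also counts reads from exons that the deletion leaves in place, so it does not check the deletion directly, and KO below means labelled KO.

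The 7 stefin A genes span 299 kb of chromosome 16 on the GRCm38 build. *Stfa2l1* (36156811 to 36161948), *Gm5483* (36184212 to 36188111), *2010005H15Rik* (36221562 to 36257447) and *Stfa1* (36277148 to 36285371) are on the plus strand. *BC100530* (36359382 to 36367570), *Stfa2* (36403946 to 36408363) and *Stfa3* (36450537 to 36455392) are on the minus strand. The copies are alike enough to share reads. *Stfa3* had no 50-base stretch in common with any other transcript. The share of windows of the read length that were unique to the gene was 84.1% for *Stfa2*, 78.0% for *2010005H15Rik*, 75.4% for *Stfa2l1*, 73.1% for *Stfa1*, 66.5% for *BC100530* and 64.4% for *Gm5483*. *Stfa1* and *BC100530* shared most with each other, and *Gm5483* with *2010005H15Rik*. The level of any 1 member other than *Stfa3* therefore rests partly on how reads were divided among the copies, whereas the sum over the 7 does so less. Windows were matched exactly, and reads that fit another copy with mismatches, those of *Stfa3* included, were not counted.

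The promoters of the members are shown here, as the 110 bases before each annotated start, 5′ to 3′ on the strand of the gene (RefSeq, GRCm38.p6). The part of these sequences in the levels given below was not tested. Capitals mark a run of 13 bases that 6 of the 7 promoters hold. It was picked from these promoters, by leaving out each member in turn and keeping the longest run that the others share. The longest run shared by all 7 was 6 bases. Nothing is read from its presence in 6 of 7. In *BC100530* the run starts at position −12 from the annotated start, and its last base falls outside the stretch shown.
Stfa1: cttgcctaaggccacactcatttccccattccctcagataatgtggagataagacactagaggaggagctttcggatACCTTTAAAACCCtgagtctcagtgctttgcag
BC100530: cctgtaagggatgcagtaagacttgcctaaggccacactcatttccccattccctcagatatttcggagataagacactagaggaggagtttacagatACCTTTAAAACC
Stfa3: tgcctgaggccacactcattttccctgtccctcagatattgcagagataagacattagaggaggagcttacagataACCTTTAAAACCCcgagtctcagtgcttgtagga
Stfa2: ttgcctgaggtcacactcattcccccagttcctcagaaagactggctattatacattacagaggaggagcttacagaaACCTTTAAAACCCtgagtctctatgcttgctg
Stfa2l1: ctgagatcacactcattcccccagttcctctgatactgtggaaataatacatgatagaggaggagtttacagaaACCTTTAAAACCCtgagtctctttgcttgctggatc
Gm5483: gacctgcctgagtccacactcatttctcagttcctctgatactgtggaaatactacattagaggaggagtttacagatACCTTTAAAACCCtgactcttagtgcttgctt
2010005H15Rik: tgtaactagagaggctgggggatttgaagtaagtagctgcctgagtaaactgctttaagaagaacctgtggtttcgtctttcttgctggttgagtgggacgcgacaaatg

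The printed stretch of *Stfa1* is chr16:36277038-36277147 and that of *Stfa3* is chr16:36455393-36455502. In the 5 promoters other than that of *BC100530*, the run started at positions −36 to −32. Among all 32851 RefSeq promoters, taken as 250 bases before to 50 after the start, 9 held the run on either strand, which is 0.027%. All 9 lie on chromosome 16, and beside the 6 members they are *Gm5416*, *Cstdc3* and *Gm7260*, which lie between the members. The 6 promoters were 69.3% to 96.1% identical over 15 pairs, with *Stfa1* and *BC100530* the closest at 96.1%. The promoter of *2010005H15Rik*, the member left out when the run was picked, did not hold it. Since the run was picked from these promoters, its count among them and its rarity elsewhere are descriptions.

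Short motifs were searched on both strands of the same windows. GAGGAA, the core bound by the myeloid factor PU.1, was in 6 of 7 promoters, all but *2010005H15Rik*, and in 28.3% of all promoters. AGATAA, which factors of the GATA family bind, was in *Stfa1*, *Stfa3* and *BC100530*, and in 11.2% of all promoters. In *Stfa3* the last base of 1 of these matches is the first base of the 13-base run. TTGCNNAA, a C/EBP motif, was in *Stfa1* and *BC100530* against 10.8% of all, and GGAANNGAA, an ETS-IRF composite, only in *Stfa3* among the 7 against 8.2% of all. TATAAA was in none of the 7 (13.6% of all), nor was CAGACA, a SMAD motif (21.0%). CCAAT was in 6 of 7 (37.4% of all) and TGANTCA, an AP-1 motif, in *Stfa3* alone of the 7 (7.8% of all). These matches describe letters and say nothing of binding.

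In WT progenitors the cluster was close to silent. The 7 genes summed to 1.74, 3.47 and 4.42 FPKM in WT MPPs, to 1.36, 3.50 and 11.2 FPKM in WT CD115- CDPs, and to 2.19, 11.6 and 0.1 FPKM in WT CLPs. By the depth read back from the tables, the WT MPP sums rest on about 16, 33 and 42 reads, and the lowest WT CLP sum on about 1 read. The highest WT sums came from the WT CLP library numbered 2 and the WT CD115- CDP library numbered 3, and those libraries also had the highest neutrophil gene sums of their groups.

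In KO progenitors the same 7 genes were abundant. Their sum was 511, 208 and 449 FPKM in KO MPPs, 220, 162 and 439 FPKM in KO CD115- CDPs, and 14.4, 86.0 and 43.8 FPKM in KO CLPs. In each population every KO library was above every WT library. The margin was wide in MPPs, where the lowest KO sum was 47.0 times the highest WT sum, and in CD115- CDPs, at 14.4 times, and narrow in CLPs, at 1.24 times, where KO library 1 is set against WT library 2. Number by number, the CLP sums were 14.4 in KO against 2.19 in WT, 86.0 against 11.6 and 43.8 against 0.1 FPKM. Group means were 3.21 ± 1.36 FPKM (SD, n = 3) in WT and 389 ± 161 in KO MPPs, 5.37 ± 5.20 and 274 ± 146 in CD115- CDPs, and 4.65 ± 6.15 and 48.1 ± 36.0 in CLPs. The ratios of the means were 121, 51.1 and 10.3. As the mean difference of log2(FPKM + 1), the sum was 6.49 higher in KO than in WT MPPs, 3.47 higher in KO than in WT CLPs, and 5.63 higher in the KO CD115- CDPs. In CLPs the difference was 2.62 without WT replicate 3, 2.89 without KO replicate 2, 4.14 without KO replicate 1 and 4.39 without WT replicate 2. In CD115- CDPs it was 6.27 without WT replicate 3, and 5.87 without the libraries numbered 3 of both genotypes, a choice made after seeing the data. In bulk samples such as these, fewer cells of a type and less RNA per cell cannot be told apart.

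**Figure D1:**
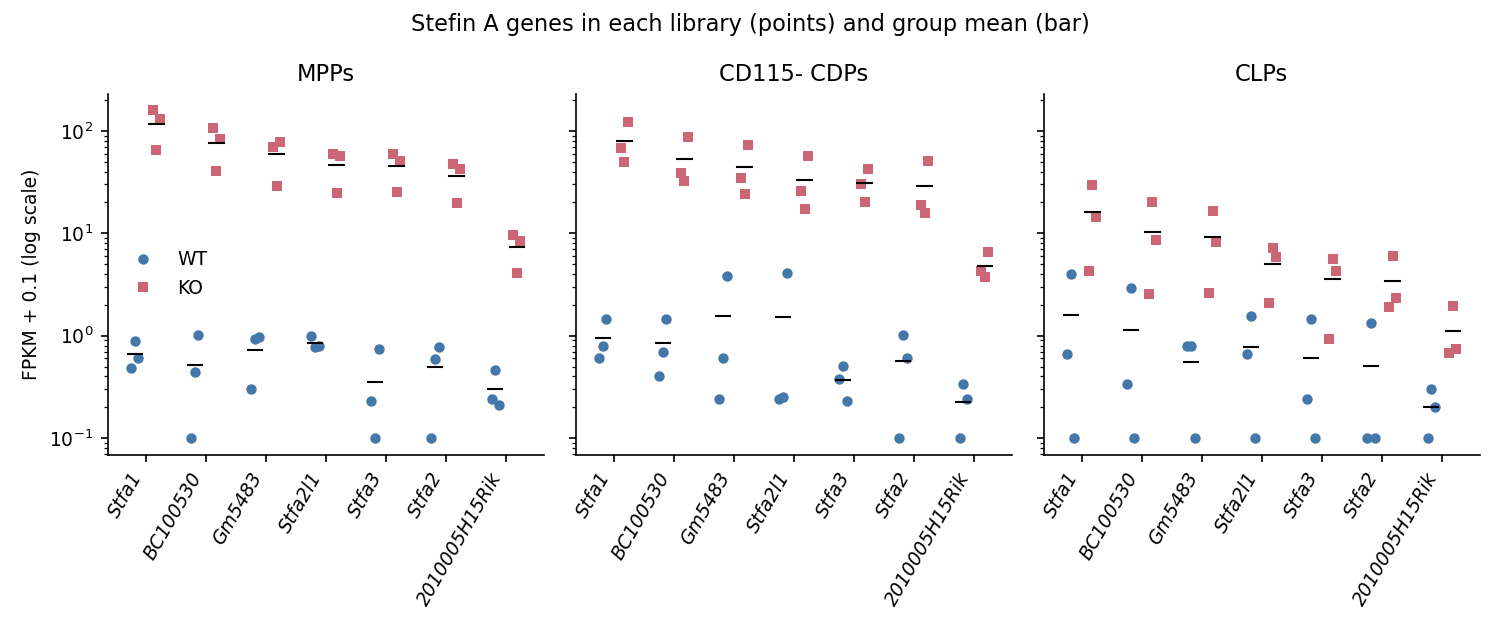
Level of each stefin A gene in each library, as FPKM + 0.1 on a log scale, in MPPs, CD115- CDPs and CLPs. Points are libraries (3 WT, 3 KO per population) and bars are group means; KO points lie above all WT points for 7 of 7 genes in MPPs and CD115- CDPs and for 5 of 7 in CLPs.

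Ordered by mean sum, the groups ran KO MPPs, KO CD115- CDPs, KO CLPs, WT CD115- CDPs, WT CLPs and WT MPPs. KO MPPs and KO CD115- CDPs overlapped, and so did the 3 WT groups. Number by number, where same-numbered MPP and CD115- CDP libraries deviated together from their groups, the KO CD115- CDP sum was the lower each time, at 220 against 511, 162 against 208 and 439 against 449 FPKM, the last of these close to equal. KO CLPs, from 14.4 to 86.0 FPKM, overlapped neither KO CD115- CDPs, from 162 FPKM, nor the WT groups, up to 11.6 FPKM.

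*Stfa1*, the most abundant member in each KO group, encodes a stefin A. Its level was 0.38, 0.78 and 0.51 FPKM in WT MPPs and 160.30, 64.51 and 130.46 FPKM in KO MPPs. It was 0.50, 0.69 and 1.37 FPKM in WT CD115- CDPs and 67.78, 49.78 and 122.13 FPKM in KO ones. In CLPs it was 0.56, 3.87 and 0 FPKM in WT and 4.21, 29.22 and 14.33 FPKM in KO. The KO libraries thus stood above the WT libraries in all 3 populations, in CLPs by little.

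*Stfa3* had no reads to share with another copy. It was at 0.13, 0 and 0.64 FPKM in WT MPPs and 59.69, 25.12 and 50.88 FPKM in KO MPPs. In CD115- CDPs the values were 0.28, 0.41 and 0.13 FPKM in WT and 30.16, 19.91 and 42.39 FPKM in KO, and in CLPs 0.14, 1.36 and 0 FPKM in WT and 0.83, 5.55 and 4.19 FPKM in KO. For this gene 1 read was worth about 0.131 FPKM in MPPs. Its genotypes were apart in MPPs and CD115- CDPs and overlapped in CLPs, where WT library 2 exceeded KO library 1, although each KO library was above the WT library of its own number.

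*Gm5483* was at 0.20, 0.83 and 0.87 FPKM in WT MPPs and 69.78, 28.63 and 77.89 FPKM in KO MPPs. In CD115- CDPs it was at 0.14, 0.50 and 3.77 FPKM in WT and 34.77, 24.05 and 73.43 FPKM in KO. *Stfa2l1* behaved likewise in the WT CD115- CDPs, at 0.14, 0.15 and 3.96 FPKM, so that *Gm5483* and *Stfa2l1* made up most of the high WT sum in library 3, while *Stfa3* was at 0.13 FPKM there. KO CD115- CDPs had 25.73, 17.09 and 57.27 FPKM of *Stfa2l1*.

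*BC100530* reached 105.74, 40.93 and 82.66 FPKM and *Stfa2* 47.26, 19.58 and 42.70 FPKM in KO MPPs. The largest WT MPP value of either was 0.91 FPKM. In CLPs *BC100530* overlapped between genotypes, at 0.24, 2.85 and 0 FPKM in WT and 2.47, 19.96 and 8.49 FPKM in KO, with each KO library above the WT library of its number. *2010005H15Rik* was the scarcest member, at 0.14, 0.36 and 0.11 FPKM in WT MPPs and 9.45, 3.97 and 8.38 FPKM in KO MPPs.

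Over the 7 genes the mean difference of log2(FPKM + 1) between KO and WT ran from 2.72 to 6.17 in MPPs, from 2.32 to 5.38 in CD115- CDPs and from 0.83 to 2.77 in CLPs. *2010005H15Rik* was the lowest and *Stfa1* the highest in each. The medians of 5.10, 4.33 and 1.81 stood beside medians of −0.11, −0.07 and 0.01 over all genes tested. All 7 passed the filter on low values, which asked for an average of 0.5 FPKM or more in the 6 libraries compared. Every KO library was above every WT library for 7 of 7 genes in MPPs and likewise in CD115- CDPs, and for 5 of 7 in CLPs. Among all genes tested the same held for 6.98%, 7.68% and 15.3%, which is given as background only, since this contrast chose the genes.

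The members varied together among the KO libraries. Of KO MPPs, library 2 had the lowest value of all 7 genes, and library 1 had between 2.38 and 2.58 times that value. Of KO CD115- CDPs, library 3 had the highest value of all 7, and of KO CLPs library 1 had the lowest and library 2 the highest of all 7. Over the 9 KO libraries, the correlation between 2 members on the log2 scale was between 0.963 and 0.999 (Pearson, 21 pairs). Over the 9 WT libraries, where most values rest on a few reads, it was between 0.0384 and 0.919. These are descriptions. The KO libraries span populations with mean sums of 389 FPKM in MPPs, 274 FPKM in CD115- CDPs and 48.1 FPKM in CLPs, and that difference enters each correlation. The copies also share libraries and, apart from *Stfa3* as far as exact matches go, reads.

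**Figure D2:**
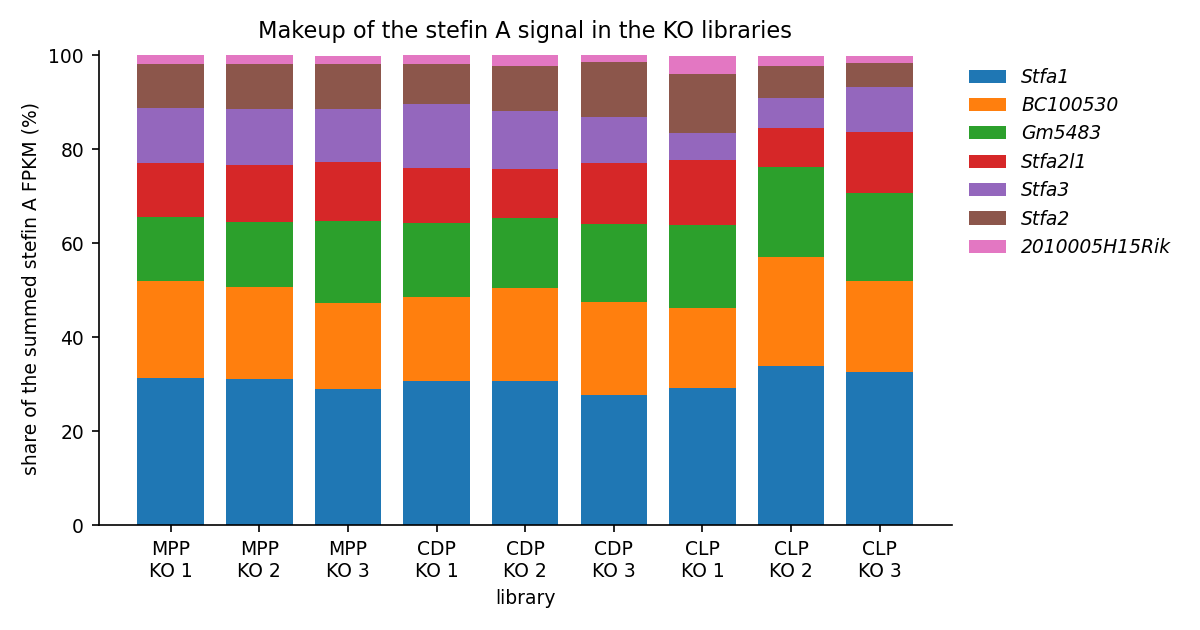
Share of the summed stefin A FPKM (y axis, %) that each of the 7 genes took in each of the 9 KO libraries (x axis). *Stfa1* took between 27.8% and 31.3% in MPPs and CD115- CDPs, and *Stfa3* between 9.65% and 13.7% in CD115- CDPs and between 5.76% and 9.56% in CLPs.

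*Stfa1* took on average 30.5% of the sum in KO MPPs, 29.7% in KO CD115- CDPs and 32.0% in KO CLPs. *BC100530* took 19.6%, 19.1% and 19.9%, and *Gm5483* 14.9%, 15.8% and 18.5%. *Stfa2l1* took 12%, 11.7% and 11.7%, and *Stfa2* 9.39%, 9.94% and 8.11%. *Stfa3* took 11.7% and 11.9% in KO MPPs and CD115- CDPs and 7.26% in KO CLPs, where its 3 libraries lay between 5.76% and 9.56%. *2010005H15Rik* took 1.87%, 1.86% and 2.55%. The shares of *Stfa1* and *BC100530* were thus close in the 3 populations, that of *Stfa3* was lowest in KO CLPs, and within KO CLPs *Stfa2* ran from 5.11% to 12.4%.

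Levels were then set side by side between populations within 1 genotype. These differences are also descriptions. High values in the KO libraries took part in the choice of the 7 genes, so the counts of calls below are no independent evidence, and nothing is read from them. In KO cells all 7 genes were lower in CLPs than in MPPs, by a log2 difference from −3.46 for *Stfa3* (standard error 0.458) to −2.01 for *2010005H15Rik* (standard error 0.271), with a median of −3.03 beside 0.04 over all genes. The mean of *Stfa1* was 118 ± 49 FPKM (SD, n = 3) in KO MPPs and 15.9 ± 12.6 FPKM in KO CLPs. The limma fit of 12421 genes called 7 of 7 lower, and 2.29% of all genes.

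All 7 were also lower in KO CLPs than in KO CD115- CDPs, where they were 1.53 to 2.94 higher on the log2 scale, with a median of 2.48. *Stfa3* stood at 2.94 (standard error 0.458) and *Stfa1* at 2.49 (standard error 0.608). The fit called 7 of 7 higher, and 1.05% of all genes. That count was 3 with a pseudocount of 0.1, 4 with the libraries of the compared groups alone, and 5 without KO CLP replicate 1. Between KO CD115- CDPs and KO MPPs the log2 differences were between −0.56 and −0.44, with 95% intervals that reached from −1.89 to 0.87, and limma called 0 (0 also at an unadjusted p under 0.05), against 1.31% of all genes.

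In WT cells the levels were low, and the scarcest members entered the fit through their KO libraries. The WT mean of *Stfa3* was 0.257, 0.273 and 0.5 FPKM in MPPs, CD115- CDPs and CLPs, and that of *2010005H15Rik* was 0.203, 0.127 and 0.1 FPKM, at or under the minimum that the filter asked for. That of *Stfa2* was 0.39, 0.47 and 0.41 FPKM in the same order, also under the minimum. The highest WT mean was 1.48 FPKM, of *Stfa1* in CLPs. Limma called 0 of 7 in each WT contrast (0 also at an unadjusted p under 0.05), against 6.79% of all genes between CD115- CDPs and MPPs, 8.70% between CLPs and MPPs and 2.94% between CD115- CDPs and CLPs. The 95% intervals of the 7 reached from −1.15 to 1.64, from −1.48 to 1.64 and from −1.41 to 1.81. The standard error of each gene came from the 1 fit of all 18 libraries and was the same in WT and KO contrasts. These bounds therefore include the spread of the KO libraries and do not measure what could be detected in WT cells. The WT levels themselves rest on a few reads per gene.

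Other genes of the locus were measured beside the members. Further stefin A genes there were 3, *Csta1*, *BC117090* and *Gm5416*. *Gm5416* (RefSeq *Csta3*), whose transcript shared no 50-base window with another, was listed at 0 in all 3 WT MPP libraries and had 4.84, 2.35 and 3.26 FPKM in KO MPPs. Among CD115- CDPs it was listed at 0 in WT and had 0.96, 0.74 and 5.09 FPKM in KO. *BC117090* (RefSeq *Cstdc6*) stood at 0 in each of the 9 WT libraries. Of its 50-base windows 66.3% were unique and 27.2% were shared with *BC100530*, so its level rests partly on how reads were divided. It had 2.79, 0.43 and 1.07 FPKM in KO MPPs and 1.53, 0.81 and 2.35 FPKM in KO CD115- CDPs. Both genes passed the filter through their KO libraries alone and so had to differ, and their values stand as a description with no test. The fits called higher 1 of these 2 genes in MPPs and 0 in CD115- CDPs, or 1 with the replicate number as a block, where 0.162%, 0.0409% and 0.376% of all genes were called higher, and nothing is read from these counts. *Csta1* had at most 0.06 FPKM in any library. In CLPs none of these 3 passed the filter on low values, where 0.673% of genes were called higher.

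**Figure D3:**
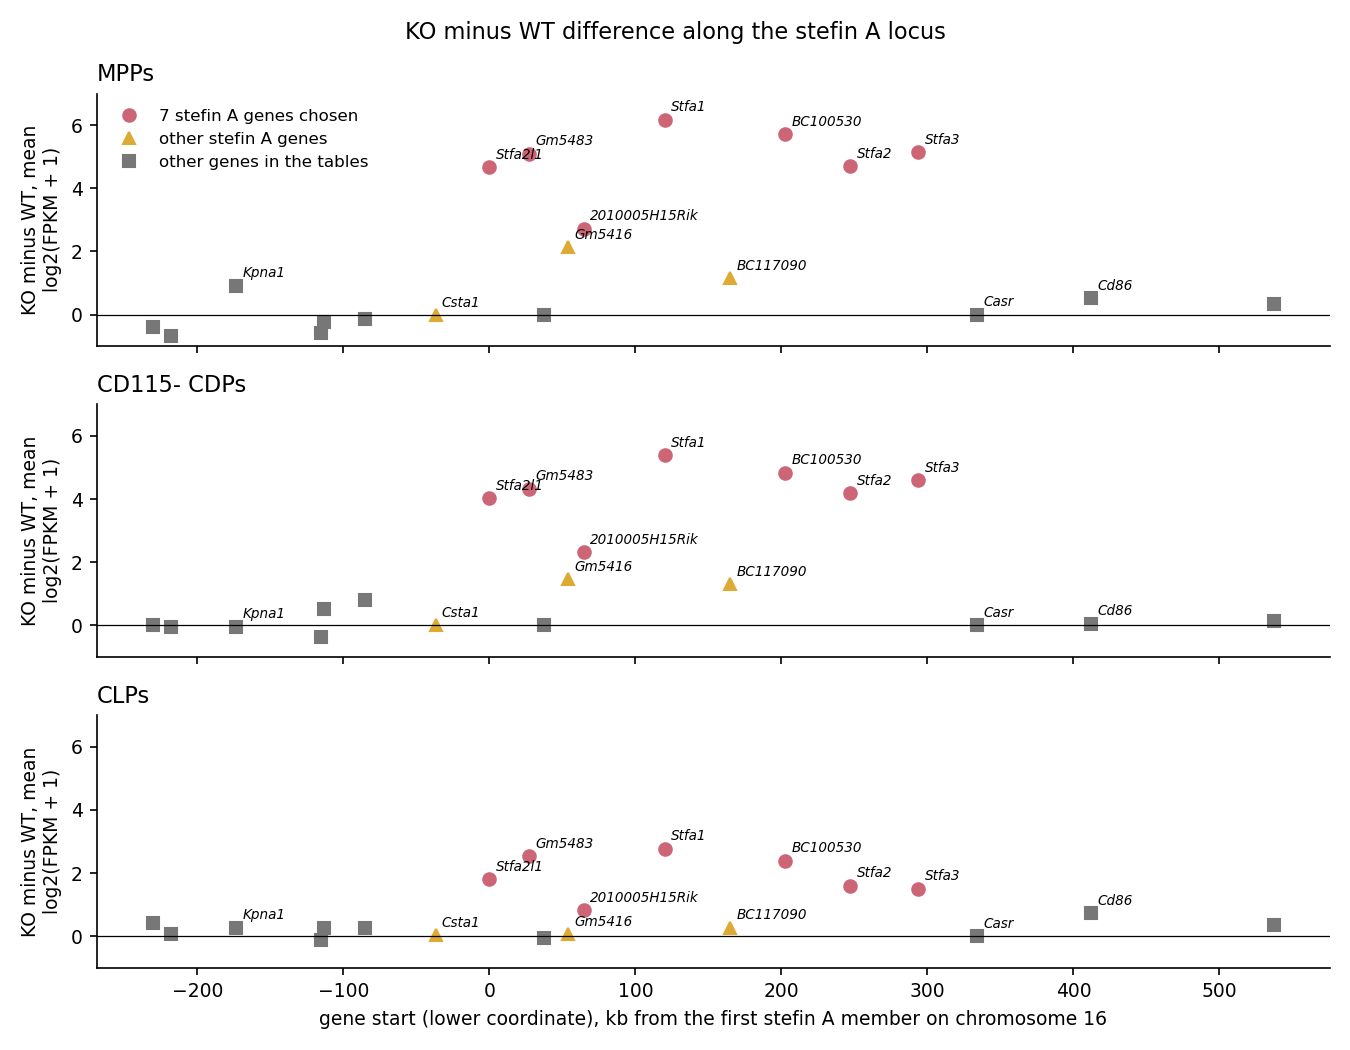
Mean KO minus WT difference of log2(FPKM + 1) (y axis) against distance along chromosome 16 in kb from the start of *Stfa2l1* (x axis), 1 panel per population. Circles are the 7 stefin A genes chosen, triangles other stefin A genes and squares the other genes of the tables within 250 kb; the circles lie between 2.72 and 6.17 in MPPs, and the squares stay below 1 in each panel.

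Of the genes within 250 kb that are not stefins, 10 are in the tables, of which 7 were tested in MPPs and in CLPs and 8 in CD115- CDPs. Their limma log2 fold changes ran from −0.66 to 0.92 in MPPs, from −0.12 to 0.74 in CLPs and from −0.38 to 0.81 in CD115- CDPs. Limma called 0 in each (3, 2 and 1 at an unadjusted p under 0.05). Of all genes 1.32% were called lower and 0.162% higher in MPPs, 2.84% and 0.673% in CLPs, and 0.0654% and 0.0409% in CD115- CDPs, so nothing is read from 0 calls among so few genes. *Kpna1*, a nuclear import receptor, was the most changed in MPPs, at 15.56, 16.85 and 11.01 FPKM in WT and 37.36, 43.80 and 13.01 FPKM in KO (log2 fold change 0.92, limma adjusted p = 0.243). *Cd86*, a costimulatory ligand on the far side of the cluster, had 1.57, 1.17 and 0.97 FPKM in WT CLPs and 2.23, 3.05 and 2.91 FPKM in KO CLPs (log2 fold change 0.74, limma adjusted p = 0.0139), under the minimum of 1 for a call. *Casr*, the calcium-sensing receptor next to *Stfa3*, had at most 0.01 FPKM in any library.

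The proteases that stefins inhibit were lower in KO wherever they were called. Of 10 cysteine cathepsin genes, 9 passed the filter in each population. None was called higher. In CLPs 5 fell, *Ctsb*, *Ctsh*, *Ctsl*, *Ctss* and *Ctsz*, in MPPs *Ctsh* fell, and in CD115- CDPs *Ctsb* fell. Among all genes tested 2.84%, 1.32% and 0.0654% were called lower in CLPs, MPPs and CD115- CDPs. The medians of the 9 were −1.12 in CLPs, −0.31 in MPPs and −0.44 in CD115- CDPs, beside 0.01, −0.11 and −0.07 over all genes.

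*Ctsh*, an aminopeptidase, was at 109.45, 124.57 and 110.41 FPKM in WT CLPs and 2.76, 4.15 and 3.58 FPKM in KO CLPs (log2 fold change −4.70, standard error 0.133, limma adjusted p = 8.28e-07). In MPPs it was at 11.52, 12.26 and 12.78 FPKM in WT and 4.84, 4.53 and 3.78 FPKM in KO (log2 fold change −1.30, limma adjusted p = 0.00617). No KO library of either population reached a WT value. In CD115- CDPs *Ctsh* had 68.85, 46.56 and 133.77 FPKM in WT and 8.10, 10.25 and 16.29 FPKM in KO, and it was called with the replicate block (limma adjusted p = 0.00267) and not without it (0.142). With the block 1.46% of genes were called lower there.

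*Ctsb*, the lysosomal cathepsin B, was at 220.12, 232.25 and 220.58 FPKM in WT CLPs and 36.78, 37.05 and 35.29 FPKM in KO CLPs (log2 fold change −2.59, limma adjusted p = 1.57e-06). Among CD115- CDPs the level was 132.80, 108.35 and 121.80 FPKM in WT and 48.75, 50.79 and 51.18 FPKM in KO (log2 fold change −1.25, limma adjusted p = 0.0401), a call that was lost when any 1 library was left out. In MPPs it was at 45.11, 46.74 and 48.09 FPKM in WT and 40.35, 35.43 and 36.42 FPKM in KO, with a log2 fold change of −0.31 that was not called (limma adjusted p = 0.111). The WT and KO libraries did not overlap in any of the 3 populations.

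Cathepsins L, S and Z fell in CLPs by 1.94, 1.12 and 1.33 on the log2 scale (limma adjusted p = 7e-05, 0.00101 and 0.000129). *Ctsz* went from 137.07, 168.98 and 138.17 FPKM to 58.75, 60.10 and 54.77 FPKM in CLPs. *Ctss*, which degrades the invariant chain of MHC class II, went from 91.13, 100.10 and 96.50 FPKM to 35.41, 48.64 and 48.43 FPKM. Without KO CLP replicate 1 its log2 fold change was −0.97, under the minimum for a call. *Ctsc*, which activates the serine proteases of neutrophil granules, was between 5.75 and 12.53 FPKM in all 18 libraries and was called in no population. The call of *Ctsh* in MPPs was lost when any 1 WT library was left out.

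**Figure D4:**
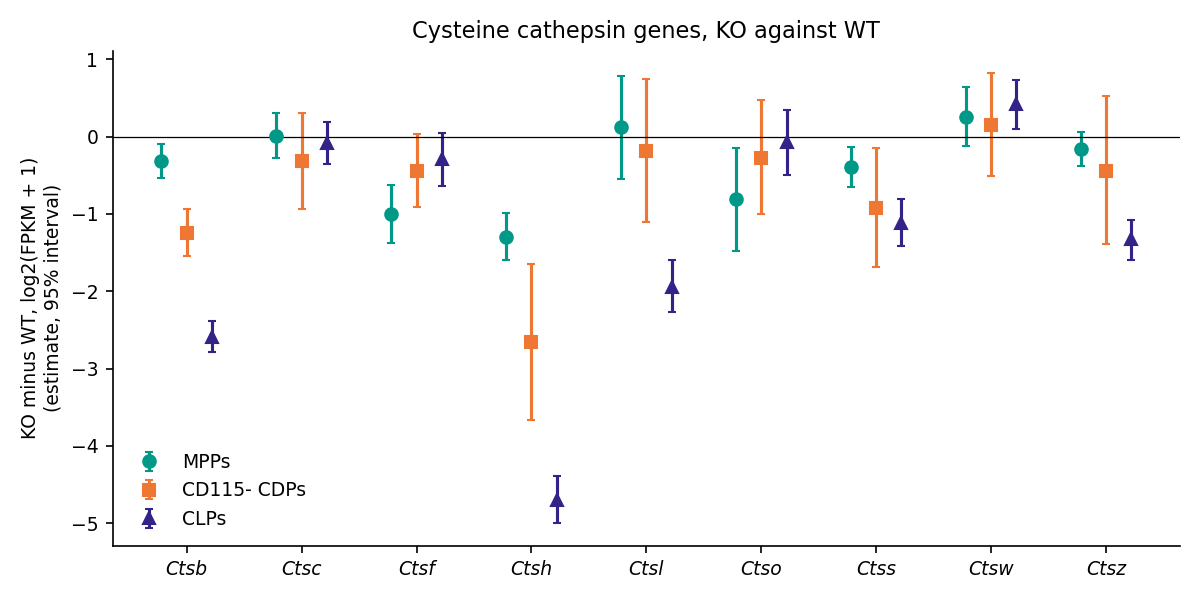
KO minus WT difference on the log2(FPKM + 1) scale (y axis) for 9 cysteine cathepsin genes (x axis) in MPPs, CD115- CDPs and CLPs. Points are limma estimates from 3 libraries per genotype and bars are 95% intervals; *Ctsh* and *Ctsb* lie farthest below 0, at −4.70 and −2.59 in CLPs.

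Cystatins encoded elsewhere were few enough to be described singly. Of 8 such genes 3 passed the filter, *Cstb*, *Cst3* and *Cst7*, and none was called in any population by limma, with or without the replicate block (1, 1 and 2 at an unadjusted p under 0.05 in MPPs, CD115- CDPs and CLPs). Few genes were called higher in any population (0.162%, 0.0409% and 0.673%), so nothing is read from 0 of 3. *Cstb*, the stefin B gene and nearest relative of the cluster, was at 37.34, 36.59 and 38.59 FPKM in WT MPPs and 44.48, 36.56 and 34.27 FPKM in KO MPPs, a log2 difference of 0.03 with a 95% interval from −0.25 to 0.3. *Cst3*, the secreted cystatin C, was at 305.29, 391.82 and 341.12 FPKM in WT CLPs and 186.56, 230.89 and 206.25 FPKM in KO CLPs (log2 fold change −0.73, limma adjusted p = 0.00743). *Cst7*, cystatin F, was at 34.49, 49.50 and 47.04 FPKM in WT CLPs and 71.88, 72.37 and 62.95 FPKM in KO CLPs (log2 fold change 0.66, limma adjusted p = 0.0182). Both stayed under the minimum change of 1 and were called in CLPs when no minimum was set. *Cst7* was also above WT in every KO library of CD115- CDPs, at 63.40, 60.45 and 81.96 FPKM in WT and 85.47, 85.45 and 100.89 FPKM in KO (log2 fold change 0.40, limma adjusted p = 0.465). *Cst3* was below WT in every KO library of CD115- CDPs, at 489.45, 391.74 and 1077.36 FPKM in WT and 260.52, 311.95 and 390.37 FPKM in KO. Its log2 fold change there was −0.90 (limma adjusted p = 0.48, or 0.0454 with the replicate block), under the minimum of 1. Every KO MPP library was also below WT for *Cst3* (log2 fold change −0.34, limma adjusted p = 0.148).

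Since stefin A genes are known from the neutrophil lineage, 18 genes of that lineage were set beside them. All 18 were above 0 in each of the 18 libraries, so RNA of that lineage's genes was present throughout. Their sum was 3870, 3990 and 4020 FPKM in WT MPPs, where the stefins were nearly silent, and 2810, 1700 and 1830 FPKM in KO MPPs, where the stefins were highest. In CD115- CDPs it was 723, 803 and 4890 FPKM in WT and 1160, 861 and 4630 FPKM in KO, and in CLPs 521, 1130 and 456 FPKM in WT and 267, 456 and 404 FPKM in KO. The most abundant gene of the list was *Mpo* in 15 libraries and *S100a9* in the other 3.

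The neutrophil and stefin sums ordered the 3 libraries alike in each population, in KO and in WT. KO CD115- CDP library 3 had the highest of both and library 2 the lowest, and KO CLP library 2 had the highest of both and library 1 the lowest. In KO MPPs library 1 had the highest of both and library 2 the lowest. In WT, where the stefin sums rest on few reads, library 3 had the highest of both and library 1 the lowest in MPPs and in CD115- CDPs. WT CLP library 2 had the highest of both and library 3 the lowest. Across the 9 KO libraries Pearson's r of the 2 sums on the log2 scale was 0.929, and across the 9 WT libraries 0.511, both as descriptions over libraries that fall into 3 populations. The part that cells of the neutrophil lineage had in the KO level was not tested.

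**Figure D5:**
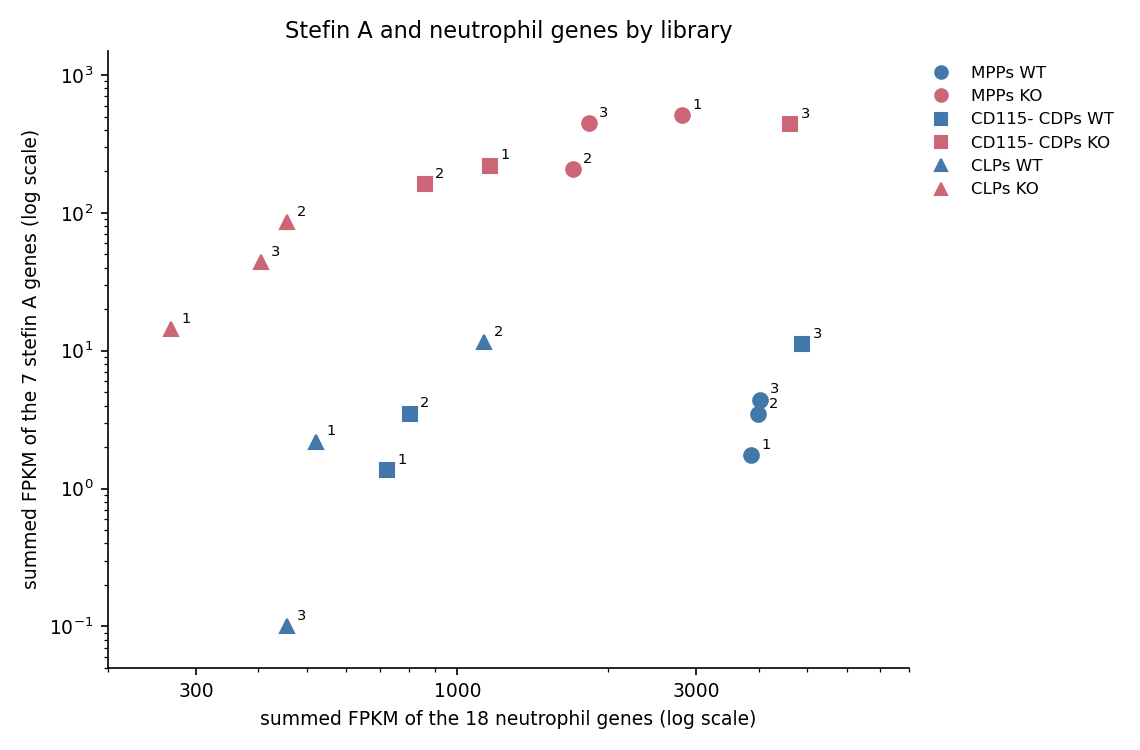
Summed FPKM of the 7 stefin A genes (y axis, log scale) against that of 18 neutrophil genes (x axis, log scale), 1 point per library with its replicate number. Blue is WT and red KO, with circles for MPPs, squares for CD115- CDPs and triangles for CLPs. The CD115- CDP libraries numbered 3 have 439 FPKM of stefins in KO and 11.2 FPKM in WT. The 7 genes were chosen by their KO to WT difference, so the height of KO points over WT points is a description.

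Between genotypes 7 of the 18 neutrophil genes fell in MPPs, *Camp*, *Lcn2*, *Ltf*, *Ly6g*, *Mmp9*, *Ngp* and *Retnlg*, and none rose, where 1.32% of all genes were called lower. They encode proteins of late granules and the surface of maturing neutrophils. The 2 with the largest change were *Ly6g*, from 9.45, 9.27 and 10.59 FPKM to 2.62, 1.58 and 2.90 FPKM (log2 fold change −1.70, limma adjusted p = 0.00776), and *Retnlg*, from 69.34, 75.13 and 82.79 FPKM to 31.73, 16.27 and 24.28 FPKM (log2 fold change −1.66, limma adjusted p = 0.0179). *Ltf* and *Mmp9* fell by 1.56 and 1.35 on the log2 scale (limma adjusted p = 0.0288 and 0.0358). *Ngp* had 470.03, 471.56 and 462.64 FPKM in WT and 269.02, 134.32 and 183.53 FPKM in KO MPPs. None of the 7 calls held when any 1 WT library was left out. With the replicate number as a block, *Camp* lost its call in MPPs (limma adjusted p = 0.0543). Over the 18, median log2 fold changes were −1.26 for MPPs, −1.06 for CLPs and 0.23 for CD115- CDPs, beside −0.11, 0.01 and −0.07 over all genes. In CD115- CDPs no gene of the list was called by limma (0 at an unadjusted p under 0.05), nor in CLPs (12 at an unadjusted p under 0.05), where 0.0654% and 2.84% of all genes were called lower. With the replicate block 9 were called lower in CLPs, among them *Elane*, *Ngp* and *S100a9*, against 3.11% of all genes called lower with it.

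Of 12 monocyte and macrophage genes 11 were tested in MPPs and in CD115- CDPs and 9 in CLPs, and none rose. In MPPs 5 fell, *Ccr2*, *Csf1r*, *F13a1*, *Fn1* and *Ms4a6c*, and in CLPs 5 fell, *Cd68*, *Csf1r*, *Cx3cr1*, *Ly6c2* and *Ms4a6c*. Of all genes 1.32% and 2.84% were called lower there. In CD115- CDPs 0 were called by limma (4 at an unadjusted p under 0.05) and 7 were lower with the replicate block, against 1.46% of all genes. *Fn1*, fibronectin, had 9.96, 9.47 and 6.00 FPKM in WT MPPs and 0.18, 0.24 and 0.20 FPKM in KO MPPs (log2 fold change −2.95, limma adjusted p = 0.00182). *Ly6c2*, which marks inflammatory monocytes, had 137.23, 171.58 and 173.70 FPKM in WT CLPs and 3.37, 7.23 and 10.15 FPKM in KO CLPs (log2 fold change −4.45, limma adjusted p = 3.49e-05). *Klf4*, the most abundant gene of the list in 14 libraries, overlapped between genotypes in all 3 populations. The sum of the list was 304, 301 and 265 FPKM in WT and 236, 224 and 126 FPKM in KO MPPs, 447, 325 and 1690 against 213, 194 and 322 FPKM in CD115- CDPs, and 332, 424 and 466 against 117, 133 and 240 FPKM in CLPs.

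Among the 12412 other genes in all 3 tables that averaged 0.5 FPKM or more over the libraries, those most like the stefin sum over the 18 libraries by Pearson's r were *Commd10* (0.909), *Sva* (0.873), *Etv4* (0.862), *Fcgr2b* (0.858), *Cops5* (0.836), *Kars* (0.828), *Hspa9* (0.828), *Fkbp1a* (0.821), *Adarb2* (0.810) and *Myl6b* (0.808). The libraries fall into WT and KO, which sets most of such a likeness. Within the 9 KO libraries r was 0.792 for *Myl6b*, 0.723 for *Cops5*, 0.642 for *Etv4* and 0.573 for *Commd10*, but −0.454 for *Fcgr2b* and −0.140 for *Sva*.

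*Etv4*, an ETS family transcription factor, had means of 0.1, 0.163 and 0.140 FPKM in WT MPPs, CD115- CDPs and CLPs and of 1.88, 1.03 and 0.457 FPKM in KO, in the same order of populations as the stefins. *Commd10* had 12.6 ± 0.347 FPKM (SD, n = 3) in WT MPPs and 25.4 ± 3.44 FPKM in KO MPPs, with 13.7 ± 0.584 and 22.4 ± 1.89 FPKM in the respective CLPs. *Sva* was at 4.21, 4.10 and 4.12 FPKM on average in KO MPPs, CD115- CDPs and CLPs, and so did not follow the lower stefin level of KO CLPs. *Fcgr2b*, the inhibitory Fc receptor, was highest in KO CLPs, at 164 ± 23.9 FPKM (SD, n = 3) against 121 ± 14.6 FPKM in KO MPPs.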

How the data were processed

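Poly-A RNA of each library was sequenced as single-end reads of 50 bases. The authors removed low-quality reads with SOAPnuke (1.5.2), mapped reads to mm10 with HISAT2 (2.0.4), aligned them to transcripts with Bowtie2 (2.2.5) and deposited FPKM values from RSEM (1.2.12), which divides reads shared by similar transcripts among them. There is 1 table per population. The MPP and CD115- CDP tables list 19710 genes each and that of CLPs lists 18378, without genes at 0 in all of its libraries. Depth and read numbers in the text are estimates from the steps between low FPKM values.

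Values were log2(FPKM + 1), with a minimum mean of 0.5 FPKM. A fold change on this scale understates that of low genes. KO and WT were compared in each population with limma (3.58.1, R 4.3.3; lmFit, eBayes with trend) and Benjamini-Hochberg adjustment over all genes tested, with a call where the adjusted p did not exceed 0.05 and the log2 fold change was 1 or more in size. Population contrasts used 1 fit of all 18 libraries over genes in all 3 tables. The fits were checked on simulated data, but no value of that check is given here and no result rests on it. Stretches of 50 bases were read from GENCODE mouse transcripts, found through the RefSeq transcript names that GENCODE links to them. Promoters were read from RefSeq (GRCm38.p6) and aligned in pairs with Biopython (1.88), and figures were drawn with matplotlib (3.10.9).

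The members and gene lists were chosen with earlier results of these data known. Genes named were the members, *Trim33*, called or most abundant genes of the family and protease lists, the most abundant and up to 5 called genes of each marker list, and the 10 genes most like the stefin sum. *Csta1*, *Ctsc*, *Kpna1*, *Cd86*, *Casr*, *Elane*, *S100a9* and the genes of the sorts were named after their values were seen. Same-numbered WT and KO libraries deviated together from their group means in CD115- CDPs (r = 0.438, 0.675 and 0.795) and in CLPs (0.408, 0.341 and 0.136) and not in every pair of MPPs (0.024, 0.481 and 0.471), so the numbers were taken to pair the libraries in CD115- CDPs and CLPs, from the data and not from the labels. Same-numbered MPP and CD115- CDP libraries of 1 genotype also deviated together (KO 0.352, 0.575 and 0.743, WT 0.155, 0.38 and 0.365). Some libraries of different numbers deviated together as much, such as WT 2 and KO 1 of CD115- CDPs (0.674), WT 3 and KO 2 of CLPs (0.234) and KO 1 of MPPs and KO 2 of CD115- CDPs (0.48), so the pairing is uncertain. A fit with the replicate number as a block was an alternative. Other alternatives were a pseudocount of 0.1, rescaling to TPM, scaling by median ratios, no filter or a minimum of 5 FPKM, no trend, no minimum fold, and leaving out each library.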

Additional observations from a re-analysis of the deposited data

Results flagged for a closer look

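*Mpo*, the most abundant neutrophil gene in most libraries, was below WT in every KO library of MPPs and above WT in every KO library of CLPs. In MPPs it was at 718.07, 713.07 and 592.13 FPKM in WT and 514.41, 412.02 and 332.78 FPKM in KO, a log2 difference of −0.70. In CLPs it was at 116.65, 131.12 and 123.97 FPKM in WT and 146.07, 157.05 and 139.12 FPKM in KO, a log2 difference of 0.25. Neither difference was called (limma adjusted p = 0.0743 in MPPs and 0.13 in CLPs). In CD115- CDPs the genotypes overlapped, at a log2 difference of −0.03. The difference of MPPs less that of CLPs was −0.95, and it was not tested.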

How the results depend on the processing

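The summed stefin difference kept its direction under each alternative tried. Leaving out 1 library moved it between 6.21 and 6.89 in MPPs, 5.08 and 6.27 in CD115- CDPs and 2.62 and 4.39 in CLPs, where the WT sums rest on as little as 1 read. The 7 calls of members lower in KO CLPs than in KO MPPs became 5 with a pseudocount of 0.1 and 6 with a minimum of 5 FPKM, and were 7 in the other alternatives. The 7 calls of KO CD115- CDPs over KO CLPs became 3 with a pseudocount of 0.1 and 4 with the libraries of those 2 groups alone, and between 5 and 7 without 1 library, with 5 without KO CLP replicate 1. With the replicate block, which pairs same-numbered libraries, both counts were 7.

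Of other stefin A genes and neighbours, the 1 call in MPPs became 2 with a pseudocount of 0.1, 0 with a minimum of 5 FPKM, and 0 to 3 without 1 library (0 without WT replicate 3, 3 without KO replicate 3). The 0 calls became 1 in CD115- CDPs with the block, and 1 in CLPs with a pseudocount of 0.1 or with no minimum fold. Of cathepsins, the 1 call in MPPs became 2 with a pseudocount of 0.1, TPM or no minimum fold, and 0 to 2 without 1 library (0 without any WT library, 2 without KO replicate 1 or 3). The 1 call in CD115- CDPs became 0 without the filter, without the trend or without any 1 library, and 2 with the block. The 0 cystatin calls in CLPs became 2 with no minimum fold. Of neutrophil genes, the 7 calls in MPPs became 6 with the block, 4 with median ratios and 3 with a minimum of 5 FPKM. Without 1 library they became 0 to 10 (0 without any WT library, 10 without KO replicate 3). The 0 in CLPs became 1 with a minimum of 5 FPKM, 9 with the block, and 0 to 4 without 1 library (2 without WT replicate 1, 4 without WT replicate 3, 1 without KO replicate 3). The cause of these changes was not tested. For 29 single-gene results, 525 of 585 values under alternatives kept their call, 60 lost it and 0 reversed.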

Other observations

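Of 8 basophil and mast cell genes tested in MPPs 4 fell in KO, *Cpa3*, *Mcpt8*, *Ms4a2* and *Prss34*, and none rose, against 1.32% of all genes called lower, with a median log2 fold change of −1.0. The sum of the 9 genes of the list was 254, 261 and 232 FPKM in WT and between 87.9 and 144 FPKM in KO MPPs, with no overlap. In CD115- CDPs and CLPs limma called 0 (0 and 1 at an unadjusted p under 0.05), and 2 and 1 with the replicate block, against 1.46% and 3.11% of all genes called lower with it. *Gata2*, *Hdc* and *Il1rl1* overlapped between genotypes in MPPs. *Prss34*, a mast cell and basophil protease, was the most abundant gene of the list in all libraries but KO CLP replicate 1, where *Gata2* was.

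Of 7 eosinophil genes tested in MPPs 1 fell, *Ear2*, an eosinophil ribonuclease, where 1.32% of all genes were called lower. In CD115- CDPs and CLPs limma called 0 of 7 and 0 of 3 (0 in both at an unadjusted p under 0.05), against 0.0654% and 2.84% of all genes called lower. The sum of the 8 genes, led by *Prg2*, was 105, 135 and 108 FPKM in WT and 102, 82.6 and 39.8 FPKM in KO MPPs.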
